A study of Mus musculus with 6 samples.

Results

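The rows described here are the hairpins of the deposited non-coding RNA table that GENCODE mouse release M21 types as miRNA and that held measurable counts in exosomes of P19 cells. P19 is an established mouse embryonal carcinoma line whose cells are pluripotent and turn into neurons after retinoic acid. Exosomes, the small vesicles that cells release, were collected by differential ultracentrifugation from undifferentiated cells (UD-P19, replicates 1 to 3, serum-free alpha-MEM with N2 supplement) and from P19 neurons (P19N, replicates 4, 5 and 6, neurobasal medium with B27 and N2 supplements). The P19N cultures were 8, 10 and 12 days old, 1 library per age, so culture age and replicate cannot be told apart within P19N, and medium and cell state cannot be told apart between the groups. Pellets of several tubes were pooled for each library, and all libraries came from 1 cell line. Per the study's methods the P19N cultures had retinoic acid and then 5-fluorouridine with uridine, which stop dividing cells, and were treated with the latter again after the medium of day 8 was taken. These treatments are not described for UD-P19 and cannot be told apart from the group. The labels give no drug exposure and no genetic change.

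Of the 5880 transcripts in the table, 454 were typed as miRNA, and 326 of these held at least 1 count in 1 of the 6 libraries. The rule asked for a sum of at least 15 counts over the 6 libraries, which 55 rows met. It also left out Mir6240, Mir6236 and Gm25641 by name, which gave 52 hairpins. Mir9-1, Mir9-2, Mir9-3 and the rows of a region of chromosome 12 were named by the rule too, but none of them reached the minimum. There were 271 rows below the minimum and 128 at 0. At the limit, Gm23681 and Gm25960 held 15 counts and Gm25197 held 16, while Mir181b-1, Gm27857 and Gm24303 held 13. In all, 34 of the 52 hairpins held at least 15 counts in each group, 11 did so in P19N alone, 3 in UD-P19 alone and 4 in neither group alone.

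A typical miRNA is cut from a hairpin of a longer transcript by Drosha and then by Dicer, and the mature strand of about 22 bases pairs with messenger RNAs through its seed, bases 2 to 8. Some annotated miRNAs have another origin. Introns can fold into hairpins (mirtrons), and small nucleolar RNAs (snoRNAs), small Cajal body RNAs (scaRNAs), 7SL RNA, 5S ribosomal RNA and transfer RNAs are themselves folded and can give short fragments that were once listed as miRNAs. Box C/D snoRNAs guide methylation of ribosomal RNA, box H/ACA snoRNAs guide pseudouridylation, and scaRNAs do both on spliceosomal RNAs. Here the label miRNA is the annotation's. The counts equal those of deposited columns named for a mature 5′ end, whose use of read length and position is not given in the sources used here, so a hairpin's count is not read as a count of its mature strand.

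The hairpins were first placed by what their sequence lies in, because most of them were not stand-alone miRNA genes. On the same strand, 24 of the 52 shared at least 1 base with a snoRNA, scaRNA, 7SL or 5S gene listed in the same table, and 10 lay whole inside another listed non-coding gene. Of the other 28, 4 were copies of a single 57-base sequence, 8 carried 1 repeat stretch with miR-690, 5 carried a B1-like repeat stretch, 4 lay in coding or untranslated exons of protein-coding genes or in a pseudogene, and 2 were serine tRNA sequences. The remaining rows were Snord43, Gm25732, Gm24111, Mir93 and Mir877. By name, 39 hairpins had Gm symbols and 11 had Mir symbols, and 11 of the 52 had a RefSeq hairpin of their own at the same place.

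The mature sequences (RefSeq, GRCm38.p6) that carry the comparisons below are shown with the seed in capitals, since they show which hairpins overlap in their possible pairing and which do not. The first pair comes from the sister scaRNAs Scarna3a and Scarna3b and differs by a shift of 1 base at the start, so that the seeds share 6 bases.
miR-1843b-5p: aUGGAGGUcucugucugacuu
miR-1843a-5p: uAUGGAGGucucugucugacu
The seed of miR-1839-5p, from a scaRNA, shares 6 bases with that of let-7f-5p, a miRNA that rises in many differentiating cells and that lies on the strand opposite to Gm24111.
miR-1839-5p: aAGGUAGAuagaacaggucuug
let-7f-5p: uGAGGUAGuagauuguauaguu
The next 3 begin or end at the edge of a snoRNA: miR-3535 and miR-1291 start at the first base of the snoRNAs Gm24148 and Snora34, and miR-677-3p ends at the last base of its snoRNA.
miR-3535: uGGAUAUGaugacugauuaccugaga
miR-1291: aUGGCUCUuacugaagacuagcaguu
miR-677-3p: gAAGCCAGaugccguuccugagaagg
miR-93-5p has the seed of miR-17-5p, miR-20a-5p, miR-20b-5p, miR-106a-5p and miR-106b-5p, among others, and miR-690 was found in 8 of the hairpins.
miR-93-5p: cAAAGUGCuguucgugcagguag
miR-690: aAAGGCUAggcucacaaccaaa

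Total counts per library ran from 454499 to 762575 in UD-P19 and from 588646 to 887460 in P19N, and the 52 hairpins together held 20741 counts. Their sum was 4700, 4803 and 3946 counts per 1000000 counts of the library in UD-P19 and 5121, 5181 and 6331 in P19N. The mean was 4483 ± 468 (SD, n = 3) in UD-P19 and 5545 ± 682 (SD, n = 3) in P19N, and the groups did not overlap. That order depended on the denominator. Per 1000000 of the TMM-scaled library size, the scale of the CPM and tests given here, the sum was 5231, 4001 and 4967 in UD-P19 and 5341, 5197 and 5186 in P19N, and the groups overlapped. The difference of means was 1062 on the first scale and 508 on this one, and on the first it was 668 without P19N replicate 6. Gm42418, a transcript that took a large share of the UD-P19 counts, was in the totals, and without it the sum was 10928 ± 1295 in UD-P19 and 6690 ± 906 in P19N (SD, n = 3 each). In RNA of pooled vesicles, fewer vesicles with an RNA and less of it per vesicle cannot be told apart. At least 1 count was found for 45, 49 and 45 of the 52 hairpins in UD-P19 and for 52, 52 and 50 in P19N. A count of 0 allows up to 3 counts, which is 3.93 to 6.60 per 1000000 in UD-P19 and 3.38 to 5.10 per 1000000 in P19N, for counting error only.

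The deposited table gave columns named unique and exact (of the mature 5′ end), read here as reads that matched 1 listed transcript only and reads without a mismatch. Unique counts made up 28.1, 20.7 and 25.9% of the hairpin counts in UD-P19 and 30.6, 32.4 and 34.9% in P19N. Over the whole table they made up 74.3, 62.1 and 78% in UD-P19 and 33.3, 32.1 and 38.5% in P19N, so there the unique share was lower in P19N. Exact counts made up 74.2, 58.3 and 75.4% in UD-P19 and 74.3, 73.6 and 75.9% in P19N. UD-P19 replicate 2 stood apart in the exact share of the hairpins and of the whole table, where it had 44.2% against 57 to 64.4% in the other libraries. It was also the highest UD-P19 library in CPM for Gm47295, Gm47299 and Gm24105, of the 7SL hairpins. The 10 hairpins that passed the test without it and not with all libraries are given both ways. Over all 1286 transcripts, 41.2% were called without it, against 24.0% with all libraries. Across hairpins the unique share split into extremes. 27 of the 52 had no unique count, 36 had at most 10% unique counts, and 7 had only unique counts. Gm25732, Gm22801 and Mir877 had no exact count at all.

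**Figure D1:**
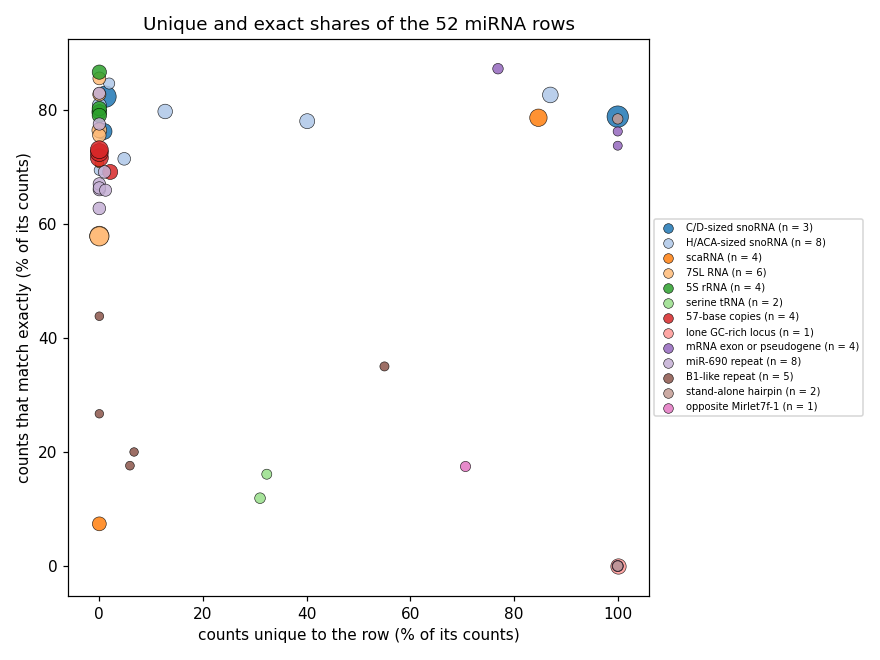
Share of counts unique to each of the 52 hairpins (x axis, %) against the share that matched exactly (y axis, %), summed over the 6 libraries, with the point area growing with the total count and colours giving what the sequence lies in. Most points stand at the left edge with few or no unique counts, and Gm25732, Gm22801 and Mir877 stand at the lower right with 100% unique and 0% exact counts.

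The snoRNAs were split by length into those of 72 and 80 bases (C/D-sized, with Snord43 by name) and those of 130 to 196 bases (H/ACA-sized). The C/D-sized class was the largest by counts, 3 hairpins with 8722 counts, or 42.1% of all hairpin counts. Snord43 and mmu-mir-3535 alone made up 39.9%. Snord43 (chr15:80082847-80082954, minus strand, GRCm38), in an intron of the ribosomal protein gene Rpl3, is a snoRNA by name although the annotation types it as miRNA. All of its 4242 counts were unique. It held 403, 467 and 561 counts in UD-P19 and 948, 923 and 940 in P19N. Scaled to 1000000 counts of TMM-normalized library size (CPM, the scale of all CPM below) this was 822 ± 236 and 1213 ± 97.1 (SD, n = 3 each). The groups did not overlap, but the log2 fold change of 0.56 (SE 0.367) was not called by edgeR (adjusted p = 0.266).

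mmu-mir-3535 (chr1:86351981-86352127, minus strand) lies in the nucleolin gene Ncl and covers the whole of the 80-base snoRNA Gm24148, with 40 bases before it and 27 after it. The hairpin is shown because the mature sequence, in capitals, begins exactly where the snoRNA begins.
mmu-mir-3535: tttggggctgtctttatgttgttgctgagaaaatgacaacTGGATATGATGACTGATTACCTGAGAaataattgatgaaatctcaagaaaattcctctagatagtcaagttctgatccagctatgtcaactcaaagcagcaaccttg
The hairpin held 737, 341 and 678 counts in UD-P19 and 807, 579 and 897 in P19N, and Gm24148 held 741, 339 and 673 and then 806, 555 and 891. Only 48 of the 4039 hairpin counts were unique, and the rows stood side by side in each library at 99.5 to 104 hairpin counts per 100 snoRNA counts. The groups overlapped, and neither the hairpin (log2 fold change -0.17, SE 0.465, adjusted p = 0.82) nor the snoRNA (-0.19, SE 0.468, adjusted p = 0.8) was called. The sign of the hairpin's change turned without UD-P19 replicate 1 (0.38, adjusted p = 0.61) and with total counts as the only scaling (0.09, adjusted p = 0.897).

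Mir677 (chr10:128085286-128085363, plus strand), in an intron of the ATP synthase gene Atp5b, covers a 72-base snoRNA of the same name with 3 bases to spare on each side. Both mature sequences are in capitals. miR-677-5p begins 2 bases after the start of the snoRNA and miR-677-3p ends at its last base, with a stretch of neither between them.
Mir677: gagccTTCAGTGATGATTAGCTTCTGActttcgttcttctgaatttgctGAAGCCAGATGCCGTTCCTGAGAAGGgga
Its counts were 27, 30 and 32 in UD-P19 and 125, 128 and 99 in P19N, and its snoRNA held 25, 27 and 35 and then 131, 124 and 99. The hairpin was at 51.5 ± 15.4 CPM in UD-P19 and 151 ± 16.0 in P19N (SD, n = 3 each), with no overlap. It rose by 1.57 on the log2 scale (SE 0.465, adjusted p = 0.021), and the snoRNA by 1.60 (SE 0.47, adjusted p = 0.0197). Of the hairpin's 441 counts 4 were unique. The call was lost when 1 of 4 libraries was left out (UD-P19 replicate 3 or any P19N replicate), with adjusted p between 0.0829 and 0.117 and log2 fold changes between 1.32 and 1.58.

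**Figure D2:**
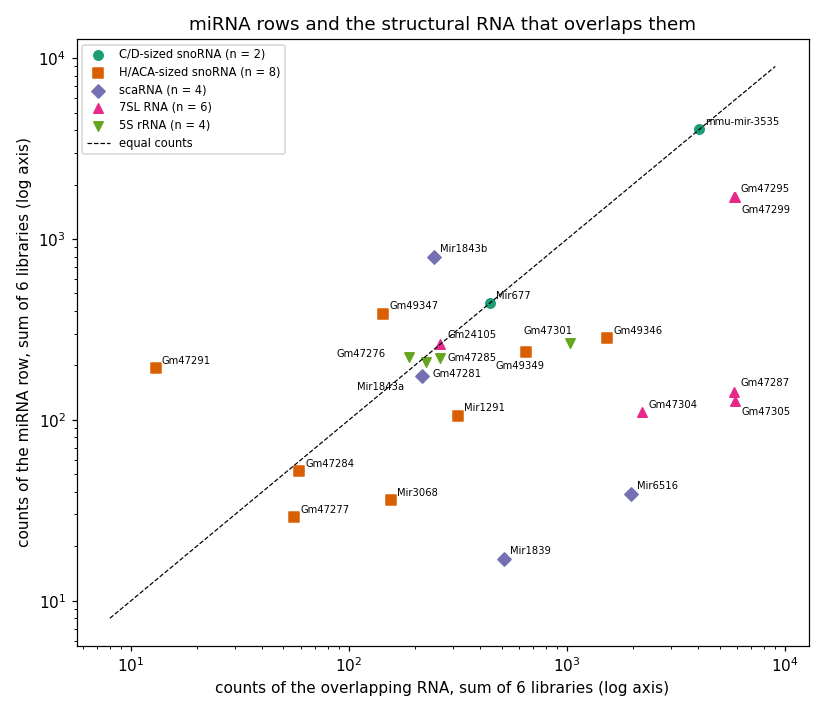
Counts of the 24 hairpins (y axis, log) against the counts of the snoRNA, scaRNA, 7SL or 5S gene that overlaps each on the same strand (x axis, log), summed over the 6 libraries, with the dashed line at equal counts. mmu-mir-3535 and Mir677 stand on the line, Mir1843b, Gm49347 and Gm47291 stand above it, and Mir6516, Mir1839 and the short 7SL hairpins stand far below it.

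Of all 52 hairpins, 14 were called between P19N and UD-P19, which is 26.9% against 24.0% of the 1286 transcripts tested. By direction, 6 hairpins rose (11.5%, against 15% of all tested) and 8 fell (15.4%, against 9.02%). The hairpins' share of calls was near that of the table as a whole. With DESeq2's size factors the split of hairpins was 6 higher and 10 lower, and that of all tested moved from 193 higher and 116 lower to 178 and 189. Among transcripts with at least 15 counts in each group, 9 of 34 hairpins were called, against 29.8% of 799. The other 5 called hairpins met the minimum through 1 group alone, Mir1843a, Mir1839, Gm24111 and Gm27512 through P19N and Gm26377 through UD-P19, and their direction is in part set by that. The groups did not overlap in CPM for 28 of the 52 (53.8%), against 42.0% of all tested. The median log2 fold change was 0.33 over the hairpins and 0.21 over all tested, and it was the same with the 2 hairpins without a UD-P19 count set at their bounds. The median over all tested moved with the scaling, to 0.05 with DESeq2's size factors and to -0.02 without Gm42418, and the changes below can be read against it. The labels do not say whether the replicates came from separate thaws or passages, so p-values measure only the spread between these libraries.

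Because unique reads matched no other listed transcript, the test was also run on unique counts alone. There, 24.9% of 510 transcripts were called (14.3% higher and 10.6% lower in P19N). The table lists non-coding RNA only, so unique reads can still be shared with a protein-coding gene. Gm26377, Gm49346 and Mir93 lie whole in annotated exons of Eef1a1, Eif4a2 and Mcm7. Of the 14 hairpins with enough unique counts, 5 were called: Mir1843b and Gm24111 rose, and Gm49347, Gm49346 and Gm26377 fell. Gm24111 held unique counts of 0, 0 and 0 in UD-P19 and 4, 9 and 11 in P19N. Gm26377 held 5, 13 and 7 and then 2, 2 and 1. Both met the minimum on unique counts through 1 group alone, so their direction there was in part set by the filter. On exact counts, where 37.4% of 966 transcripts were called (19.9% higher and 17.5% lower in P19N), 10 of 38 hairpins were called. Mir1843b and Mir677 rose, and Gm49346, Gm49347, Mir1291, Gm26377 and the 4 5S hairpins fell. Each of these was also called on all counts, in the same direction. Gm26377 met the minimum through UD-P19 alone on exact counts too (7, 13 and 8, then 2, 3 and 1).

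**Figure D3:**
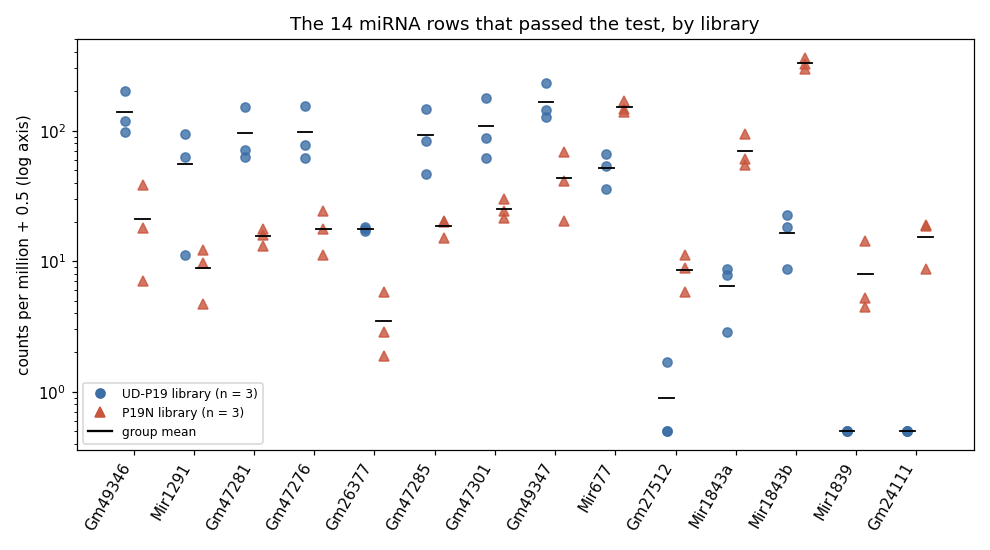
CPM plus 0.5 (log axis) in each library for the 14 hairpins that passed the test, ordered from the lowest to the highest log2 fold change, with circles for UD-P19, triangles for P19N (n = 3 each) and bars at group means. The groups overlap for Mir1291 alone, and Mir1839 and Gm24111 sit at the bottom in each UD-P19 library with 0 counts.

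The 4 hairpins in scaRNAs were all higher in P19N in their mean, and 3 of them rose by the test. Mir1843a, Mir1839 and Mir6516 met the minimum through their P19N counts alone, so their direction was in part set by the choice of rows. Mir1843b (chr1:159340358-159340423, plus strand), in an intron of the ubiquitin ligase gene Cop1, lies at the 3′ end of Scarna3a, with 65 of its 66 bases inside the scaRNA and 1 base past its end. Mir1843a (chr12:80391613-80391677, minus strand), in an intron of Dcaf5, lies whole inside Scarna3b. Both are shown with their mature sequences in capitals, since they are close relatives that can hold the same reads.
Mir1843b: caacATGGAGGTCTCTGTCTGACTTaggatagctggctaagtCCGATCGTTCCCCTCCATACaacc
Mir1843a: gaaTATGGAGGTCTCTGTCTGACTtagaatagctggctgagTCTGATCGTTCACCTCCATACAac
Mir1843b held 9, 15 and 5 counts in UD-P19 and 309, 225 and 233 in P19N. It went from 16.0 ± 7.05 to 328 ± 33.3 CPM (SD, n = 3 each), a log2 fold change of 4.36 (SE 0.518, adjusted p = 1.34e-05). This was the largest change among hairpins with counts in every library, and it was called under each of the 16 alternatives. The groups were far apart.

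Of the 796 counts of Mir1843b, 674 were unique and 626 exact, and on unique counts alone the log2 fold change was 4.55 (adjusted p = 0.000124). Scarna3a itself held 6, 5 and 9 counts in UD-P19 and 77, 69 and 78 in P19N, and rose by 3.06 (SE 0.559, adjusted p = 0.000991). The hairpin held more counts than the longer RNA around it in 5 of 6 libraries, at 150, 300 and 55.6 hairpin counts per 100 scaRNA counts in UD-P19 and 401, 326 and 299 in P19N. These ratios overlapped between the groups. Mir1843a held 3, 2 and 5 counts in UD-P19 and 80, 46 and 39 in P19N, from 5.99 ± 3.17 to 69.7 ± 21.3 CPM, and rose by 3.58 (SE 0.631, adjusted p = 0.000757). None of its 175 counts were unique and 13 were exact, so most of its reads also matched another transcript and carried a mismatch. Scarna3b held 9, 4 and 6 counts and then 98, 54 and 44. It rose by 2.84 (SE 0.623, adjusted p = 0.00362), and 28 of its 215 counts were unique. On these alone it was not called (1.16, adjusted p = 0.366).

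Mir1839 (chr7:81529916-81529988, plus strand) overlaps a 127-base scaRNA of the same name by 66 bases and lies inside the long RNA 2900076A07Rik. The hairpin is shown because it is the one whose seed comes close to that of let-7.
Mir1839: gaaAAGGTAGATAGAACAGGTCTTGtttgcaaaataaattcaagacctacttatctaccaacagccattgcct
It held 0 counts in each UD-P19 library and 4, 3 and 10 in P19N, none of them unique. With 3 counts set as the bound in each UD-P19 library, its mean CPM in P19N was 1.42 times the mean bound. This ratio leaves out the spread within P19N, where replicate 6 stood at 13.9 CPM and replicates 4 and 5 at 4.7 and 3.96. Mir1839 was called by edgeR (adjusted p = 0.021), but not without UD-P19 replicate 3 (adjusted p = 0.0626) or P19N replicate 6 (adjusted p = 0.106). It met the minimum through its P19N counts alone, so its direction was set by the choice of rows. The scaRNA held 5, 0 and 11 counts and then 229, 180 and 90, close to the 5, 2 and 10 and then 238, 184 and 93 of 2900076A07Rik, and rose by 4.45 (SE 0.79, adjusted p = 0.000757). Mir6516 (chr11:117077348-117077457, plus strand), which extends 22 bases past the 3′ end of the scaRNA Gm26083 inside Snhg20, held 1, 4 and 5 counts and then 10, 9 and 10. The groups did not overlap in CPM, but Mir6516 was not called (log2 fold change 1.21, SE 0.693, adjusted p = 0.204). Gm26083 held 73, 22 and 52 counts and then 733, 521 and 558, and rose by 3.03 (SE 0.564, adjusted p = 0.00112). Snhg20 held 79, 27 and 56 and then 743, 541 and 584. Per 100 counts of Gm26083, Mir6516 held 1.37, 18.2 and 9.62 in UD-P19 and 1.36, 1.73 and 1.79 in P19N, with overlap. Neither Gm26083 nor Snhg20 held a unique count.

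The 8 hairpins in H/ACA-sized snoRNAs held 1319 counts and all had a mean change below 0. By the test 3 fell and 5 were not called. Gm49346 (chr16:23110753-23110858, plus strand) lies in the translation factor gene Eif4a2, with 103 of its 106 bases at the 5′ end of Snora81 and 3 bases before it. It held 82, 82 and 71 counts in UD-P19 and 15, 5 and 27 in P19N, from 138 ± 55.1 to 20.6 ± 15.7 CPM (SD, n = 3 each), with no overlap. It fell by 2.74 on the log2 scale (SE 0.609, adjusted p = 0.00404), and 113 of its 282 counts were unique, on which it also fell by 2.72 (adjusted p = 0.0433). Without P19N replicate 6, its highest P19N library, the log2 fold change was -3.78, and without replicate 5, its lowest, -2.32.

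Snora81 ran the other way. It held 111, 200 and 105 counts in UD-P19 and 426, 367 and 315 in P19N, from 227 ± 49.9 to 474 ± 32.3 CPM (SD, n = 3 each). Its log2 fold change was 1.06 (SE 0.391, adjusted p = 0.0594) on all counts, not called, and 1.59 (adjusted p = 0.0146) on its unique counts, called. Per 100 counts of Snora81 the hairpin held 73.9, 41.0 and 67.6 in UD-P19 and 3.52, 1.36 and 8.57 in P19N, with no overlap. The difference between the pair was not tested by itself. This was the only pair in which a called hairpin and its overlapping RNA had opposite signs. Over the 23 pairs in which the overlapping RNA was also tested, 21 had the same sign, both rows were called in 8, the hairpin alone in 3 and the overlapping RNA alone in 1. The rows of a pair can hold the same reads, so like signs and calls were in part set in advance. For mmu-mir-3535, 3991 of 4039 counts were not unique, and for Mir677, 437 of 441. Rn7s1 and Rn7s2 each stand in more than 1 pair, and some hairpins are identical copies, so the pairs are not separate measurements.

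**Figure D4:**
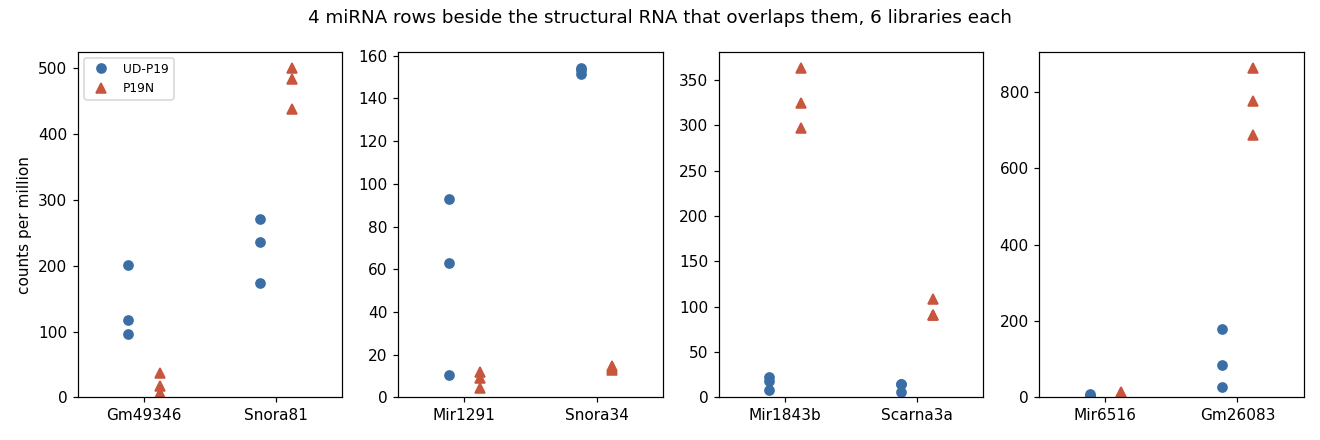
CPM in each library (circles UD-P19, triangles P19N, n = 3 each) for 4 hairpins, each beside the structural RNA that overlaps it, with a linear axis from 0 in each panel. Gm49346 is lower and Snora81 higher in P19N, Mir1291 and Snora34 are both lower, and Mir1843b and Scarna3a are both higher. Mir6516, at 2.45 to 13.9 CPM, and Gm26083 are both higher in P19N without overlap, and Mir6516 was not called.

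Gm49347, which extends 15 bases past the 3′ end of Snora74a, held 94, 107 and 87 counts in UD-P19 and 17, 31 and 49 in P19N. It fell by 1.95 (SE 0.531, adjusted p = 0.0131), from 167 ± 55.6 to 43.0 ± 24.2 CPM (SD, n = 3 each), and 335 of its 385 counts were unique. The call was lost without P19N replicate 4 (adjusted p = 0.102) or 5 (adjusted p = 0.0724), and without replicate 6 the log2 fold change was -2.74. Snora74a held 32, 42 and 20 and then 11, 15 and 23 counts, fewer than the hairpin in every library, and was not called (-1.30, SE 0.553, adjusted p = 0.0952).

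Mir1291 (chr15:98519762-98519878, minus strand), in an intron of Kansl2, begins 25 bases before Snora34. Its mature sequence, in capitals, is the first 26 bases of the snoRNA.
Mir1291: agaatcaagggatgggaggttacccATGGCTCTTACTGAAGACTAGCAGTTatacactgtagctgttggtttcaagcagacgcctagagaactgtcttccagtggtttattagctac
It held 38, 9 and 38 counts in UD-P19 and 10, 7 and 3 in P19N. UD-P19 replicate 2 was low, so the groups overlapped in CPM. It fell by 2.65 (SE 0.729, adjusted p = 0.0139), and the call was lost without UD-P19 replicate 1 (-2.07, adjusted p = 0.0584). Snora34 held 63, 128 and 93 and then 11, 11 and 10 counts, from 153 ± 1.56 to 13.8 ± 0.801 CPM (SD, n = 3 each), and fell by 3.46 (SE 0.497, adjusted p = 0.000113), also on its unique counts (-3.67, adjusted p = 0.00107).

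Of the 5 not called, Gm49349 (51, 10 and 84 counts in UD-P19, and 16, 21 and 55 in P19N) and Gm47291 (35, 3 and 72, and 15, 20 and 48) had like counts in each library, high in the same libraries and low in the same. Gm49349 lies in the Taf1d gene and Gm47291 in an intron of Eng on another chromosome, and they share an unbroken run of 60 bases. All 193 counts of Gm47291 and 207 of the 237 counts of Gm49349 were shared with another row. The snoRNA that overlaps Gm47291, Gm26236, held only 13 counts in all. With all libraries the log2 fold changes were -1.15 (adjusted p = 0.256) and -0.89 (adjusted p = 0.427), and without UD-P19 replicate 2 both fell by the test (-1.70 with adjusted p = 0.00522, and -1.49 with adjusted p = 0.0135). Without UD-P19 replicate 3 they were -0.752 (adjusted p = 0.576) and -0.257 (adjusted p = 0.867). Without P19N replicate 6 they were -2.255 (adjusted p = 0.065) and -1.934 (adjusted p = 0.148). Mir3068, at the 3′ end of a 136-base snoRNA of the same name in an intron of Alkbh1, held 2, 16 and 11 counts and then 1, 2 and 4. Its change of -2.19 (SE 0.793, adjusted p = 0.0561) was at the threshold and passed it under 6 of the alternatives, among them DESeq2's size factors (adjusted p = 0.036). Without P19N replicate 6 the change was -3.16 (adjusted p = 0.0277), and without P19N replicate 4 it was -1.78 (adjusted p = 0.243). Gm47284, in Rpl27a, held 3 to 18 counts a library, and Gm47277, in Champ1, held 1 to 10.

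The 4 hairpins in 5S ribosomal RNA genes fell together. 5S rRNA is the small RNA of the large ribosomal subunit that RNA polymerase III makes. All 4 lie whole inside annotated 5S copies, none of their 915 counts were unique, and Gm47276 and Gm47281 have the same 60-base sequence, so they are not separate measurements. The stretch of Gm47285, bases 33 to 93 of the 119-base n-R5s64, is shown because 51 of its bases, in an unbroken run, are in all 4 of these hairpins.
Gm47285: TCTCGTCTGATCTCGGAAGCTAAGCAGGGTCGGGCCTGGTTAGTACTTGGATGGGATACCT
Gm47281 held 29, 53 and 92 counts in UD-P19 and 13, 13 and 9 in P19N, from 95.2 ± 49.3 to 15 ± 2.33 CPM (SD, n = 3 each), and fell by 2.65 (SE 0.55, adjusted p = 0.00252). The copy around it, n-R5s1, held 22, 66 and 85 and then 21, 15 and 17 counts. It fell by 2.00 (SE 0.526, adjusted p = 0.0109), although not on its 15 unique counts (-0.79, adjusted p = 0.555).

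The other copies were like it. Gm47276 (25, 65 and 93 counts, and 9, 13 and 17) lies in Gm26381 (18, 50 and 91, and 9, 7 and 14) and fell by 2.50 (SE 0.562, adjusted p = 0.00415), or by 3.13 without P19N replicate 6. Gm47285 (19, 70 and 88 counts, and 17, 11 and 14) lies in n-R5s64 (21, 77 and 103, and 22, 20 and 17) and fell by 2.34 (SE 0.553, adjusted p = 0.00571). Gm47301, which differs from Gm47276 at 2 of 60 positions counted from the 5′ end (G5A and G59C, with the base of Gm47301 first), held 25, 74 and 108 and then 25, 18 and 15 counts. It fell by 2.14 (SE 0.536, adjusted p = 0.00861), but not by the test without P19N replicate 5 (adjusted p = 0.0567). For each of these 4 the groups did not overlap in CPM. The longer row around Gm47301, n-R5s193, held 102, 240 and 254 and then 153, 141 and 136 counts and was not called (-0.78, SE 0.404, adjusted p = 0.163). Per 100 of its counts the hairpin held 24.5, 30.8 and 42.5 in UD-P19 and 16.3, 12.8 and 11 in P19N.

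The 6 hairpins in 7SL RNA, the RNA of the signal recognition particle that brings ribosomes to the endoplasmic reticulum, held 4049 counts, 19.5% of all, and none of these were unique. Their counts differed widely. Gm47295 had 53, 553 and 139 counts in UD-P19 and 401, 353 and 207 in P19N, and Gm47299, its near-identical copy, had 67, 514 and 147 and then 376, 377 and 219. Gm47287 had 1, 19 and 12 and then 50, 43 and 18 counts, and its identical copies were like it, Gm47305 with 1, 16 and 15 and then 42, 36 and 17, and Gm47304 with 2, 14 and 10 and then 37, 31 and 16. Gm47295 and Gm47299 held more counts than these 3 in every library. Gm24105 was between them, with 10, 46 and 21 and then 71, 75 and 40 counts, beside 6, 43 and 30 and then 81, 70 and 31 of the longer RNA of the same name. The whole RNAs around them, which are other 7SL genes of nearly the same length, had 242, 1282 and 583 counts and then 1517, 1461 and 750 (Rn7s1), 250, 1314 and 572 and then 1533, 1465 and 755 (Rn7s2), and 105, 450 and 230 and then 578, 580 and 271 (Rn7s6).

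None of the 6 7SL hairpins was called in P19N against UD-P19. In CPM, UD-P19 replicate 2 was the highest of its group for Gm47295 (653.6 against 129.8 and 229.4), Gm47299 and Gm24105, while for Gm47287, Gm47305 and Gm47304 it was near replicate 3, and below it for Gm47305 (18.9 against 24.8). Without replicate 2, 5 passed the test, namely Gm47295 (1.17, adjusted p = 0.00988), Gm47299 (1.02, adjusted p = 0.0172), Gm24105 (1.40, adjusted p = 0.0149), Gm47287 (1.93, adjusted p = 0.0147) and Gm47304 (1.63, adjusted p = 0.0312). Gm47295 and Gm47299 are near-identical and Gm47287 and Gm47304 identical in sequence, so these 5 are not separate measurements. Calls rose over the whole table without this library too, where 25.7% of 1286 transcripts were called higher in P19N, against 15% with all libraries. With edgeR's own filter on low counts, under which 38.2% of 770 transcripts were called, Gm47287 (adjusted p = 0.0395) and Gm47304 (adjusted p = 0.0498) passed as well. With all libraries the log2 fold changes were 0.27 (SE 0.517, adjusted p = 0.734) for Gm47295, 0.29 (adjusted p = 0.684) for Gm47299, 1.04 (SE 0.505, adjusted p = 0.14) for Gm24105, 1.57 (SE 0.636, adjusted p = 0.0885) for Gm47287 and 1.42 (adjusted p = 0.091) for Gm47304. The sign of Gm47295 turned without UD-P19 replicate 1 (-0.12), without replicate 3 (-0.21) and without Gm42418 in the totals (-0.01). Per 100 counts of Rn7s1, Gm47287 held 0.413, 1.48 and 2.06 in UD-P19 and 3.30, 2.94 and 2.40 in P19N, with no overlap. Its identical copy Gm47305 held 0.4, 1.22 and 2.62 and then 2.74, 2.46 and 2.25 per 100 counts of Rn7s2, where the groups overlapped. Another identical copy, Gm47304, held 1.9, 3.11 and 4.35 and then 6.4, 5.34 and 5.9 per 100 counts of Rn7s6, with no overlap. Per 100 counts of Rn7s1, Gm47295 held 21.9, 43.1 and 23.8 and then 26.4, 24.2 and 27.6, with overlap.

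The 2 serine tRNA hairpins, Gm44456 (chr13:21924928-21925016, minus strand) and n-TStga1 (chr13:23518142-23518250, plus strand), share 82 bases, shown in capitals. They are a whole tRNA sequence by the name of the second.
Gm44456: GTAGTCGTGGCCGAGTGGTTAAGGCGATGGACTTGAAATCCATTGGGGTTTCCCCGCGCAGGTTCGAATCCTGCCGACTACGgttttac
Gm44456 held 0, 14 and 3 counts in UD-P19 and 8, 11 and 6 in P19N, and n-TStga1 held 1, 7 and 1 and then 7, 8 and 7. Neither was called, UD-P19 replicate 2 was again the highest of its group in both, and only 10 of their 73 counts were exact.

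**Figure D5:**
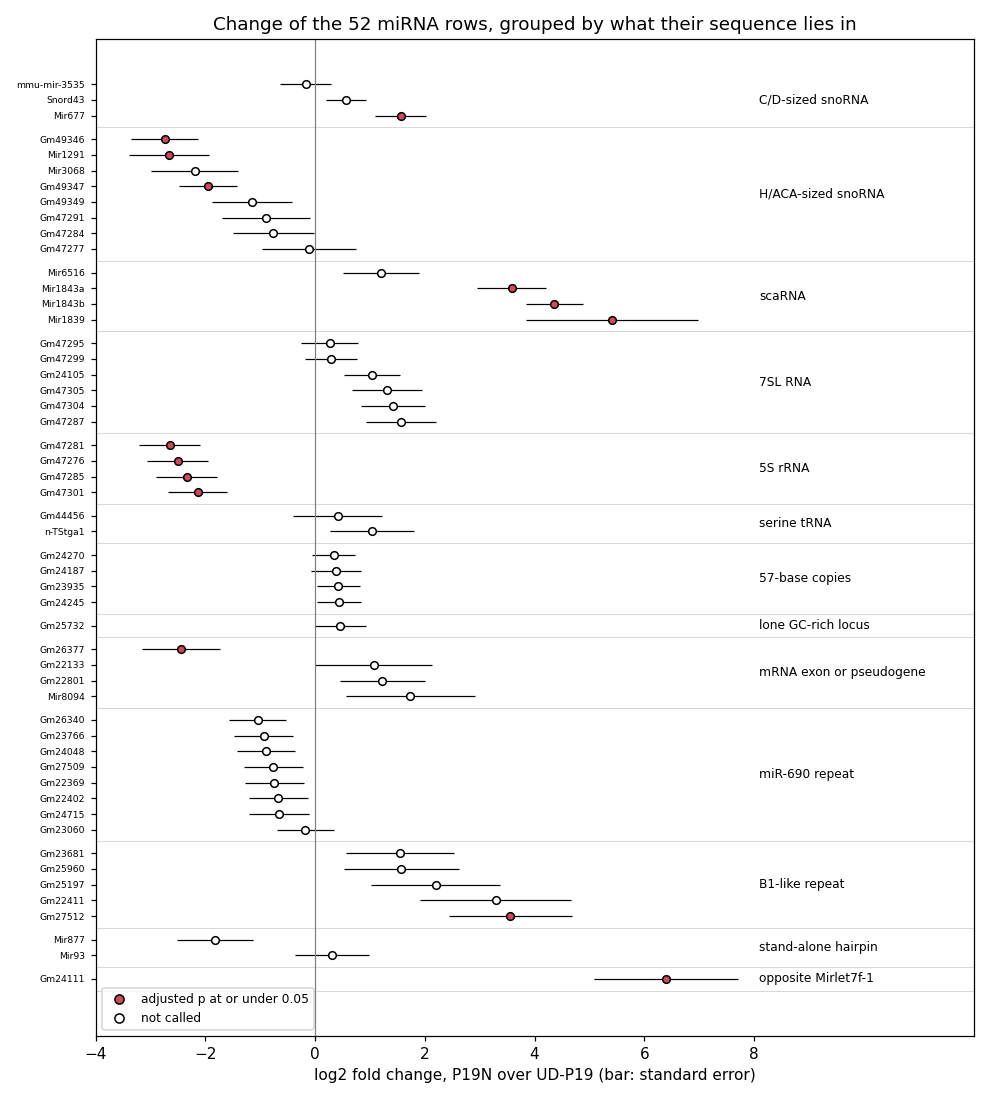
Log2 fold change of P19N over UD-P19 (x axis) with its standard error for each of the 52 hairpins, grouped by what the sequence lies in, with filled points for an adjusted p of at most 0.05. The 4 5S hairpins and 3 of the H/ACA-sized snoRNA hairpins are filled to the left of 0, 3 of the 4 scaRNA hairpins are filled to the right, no 7SL, 57-base or miR-690 hairpin is filled, and the points of Gm24111 and Mir1839, with 0 counts in UD-P19, depend on the prior count of the fit.

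The 57-base copies were the second large block outside the snoRNAs, with 3248 counts in 4 rows. Gm24270 (chr9:56223715-56223771, minus strand), Gm24245 (chr4:139338304-139338360, plus strand) and Gm23935 (chr16:11144125-11144181, plus strand) have 1 sequence, which is 73.7% G and C. Gm24187 differs from it at 1 position counted from the 5′ end, G11A with the base of Gm24270 first. Gm25732, a hairpin of 60 bases, lies 38 bases before Gm24245 on the same strand and is shown with it, because the neighbours had opposite matching.
Gm24270: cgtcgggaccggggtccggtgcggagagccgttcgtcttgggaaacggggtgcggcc
Gm25732: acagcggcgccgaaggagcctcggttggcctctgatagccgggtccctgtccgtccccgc
Gm24270 held 84, 171 and 132 counts in UD-P19 and 244, 216 and 159 in P19N, Gm24245 held 85, 149 and 127 and then 266, 209 and 153, and Gm23935 held 91, 159 and 105 and then 245, 199 and 166. The 3 rows were near-equal in each library and not the same, with 0 unique counts and 71.6 to 73.0% exact. Gm25732 held 25, 43 and 53 counts in UD-P19 and 78, 78 and 57 in P19N, all of them unique and none exact.

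None of these 5 was called. Gm24270 was at 209 ± 8.26 CPM in UD-P19 and 264 ± 37.3 in P19N (SD, n = 3 each), with a log2 fold change of 0.34 (SE 0.392, adjusted p = 0.54). Gm25732 had a log2 fold change of 0.46 (SE 0.462, adjusted p = 0.478). The counts of the 3 identical copies did not overlap between the groups in CPM, and having 1 sequence they are not separate measurements.

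The 8 hairpins with miR-690, on 7 chromosomes, share a stretch of 47 bases that also holds miR-3473b, and no other of the 454 miRNA rows holds that stretch. Its sequence is close to the B2 family of short interspersed repeats, which RNA polymerase III transcribes. The hairpin Gm27509 is printed with miR-690 in capitals.
Gm27509: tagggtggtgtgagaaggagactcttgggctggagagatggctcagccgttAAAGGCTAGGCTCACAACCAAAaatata
The 8 rows held 82 to 102 counts each, 729 together, of which 2 were unique. Gm26340, the most counted, had 14, 34 and 16 counts in UD-P19 and 14, 15 and 9 in P19N, from 33.6 ± 6.91 to 16.3 ± 3.64 CPM (SD, n = 3 each). All 8 had log2 fold changes below 0, from -1.04 (Gm26340, SE 0.522, adjusted p = 0.15) to -0.18 (Gm23060, SE 0.523, adjusted p = 0.831), and none was called. With a shared stretch and almost no unique counts, the 8 rows are not separate measurements. In CPM, UD-P19 replicate 2 was the highest of its group for 7 of the 8, by little for Gm23060 (22.5 against 22.0 in replicate 1) and Gm24048 (33.1 against 31.8), and Gm27509 was highest in replicate 3 (33.0 against 31.9).

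The 5 hairpins with a B1-like stretch were at the lower limit of the counts, 15 to 20 each, and 4 of them lie in an intron of a protein-coding gene or opposite one. B1 is the mouse repeat that descends from 7SL RNA. They share 30 bases, which 31 of the 454 miRNA rows hold, and Gm25960 and Gm23681 hold miR-3470b. Gm27512 had 0, 1 and 0 counts in UD-P19 and 9, 4 and 6 in P19N, a ratio of 15.2 (95% interval 2.41 to 630.9, counting error only). It was called (adjusted p = 0.0277), but not when any 1 library other than UD-P19 replicate 2 was left out (adjusted p 0.0621 to 0.118), nor with no filter on low counts (adjusted p = 0.0854). Gm22411 had 0, 1 and 0 and then 10, 6 and 0, a ratio of 12.8 (1.99 to 536.2), and Gm25197 had 2, 0 and 0 and then 7, 4 and 3, a ratio of 5.59 (1.28 to 50.7). Gm25960 (1, 2 and 0, then 5, 5 and 2) and Gm23681 (1, 1 and 1, then 5, 2 and 5) each had a ratio of 3.20 (0.863 to 17.7), and these 4 were not called. Gm22411 passed without UD-P19 replicate 2 (adjusted p = 0.0423, against 0.0952 with all libraries) and Gm25197 without UD-P19 replicate 1 (adjusted p = 0.0407, against 0.175), and in both cases the UD-P19 libraries left held 0 counts. Each of the 5 reached the minimum with P19N counts in the main, so the direction is in part set by the choice of rows.

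The 4 hairpins in coding or untranslated exons or in a pseudogene held 134 counts, 93.3% unique. Gm26377 lies whole in the 3′ untranslated region of Eef1a1, the abundant translation elongation factor mRNA, and holds the sequence of miR-703. It had 7, 15 and 10 counts in UD-P19 and 2, 4 and 1 in P19N, from 17.1 ± 0.612 to 3.01 ± 2.02 CPM (SD, n = 3 each). It fell by 2.44 (SE 0.718, adjusted p = 0.0201), but not by the test without P19N replicate 4 (adjusted p = 0.113) or with no filter on low counts (adjusted p = 0.0641), and without P19N replicate 5 the log2 fold change was -3.06. Gm22801, in the pseudogene Gm12715, held 2, 9 and 3 counts and then 26, 13 and 2, all unique and none exact. Mir8094, in a coding exon of the RNA helicase gene Ddx39b (0, 4 and 0 counts, then 11, 6 and 0), and Gm22133, in the ferritin light chain gene Ftl1 with the sequence of miR-692 (0, 1 and 4, then 10, 3 and 1), were not called. Mir8094 passed without UD-P19 replicate 2, which held its only UD-P19 counts (adjusted p = 0.0389, against 0.286 with all libraries). In these 3, among the P19N libraries, the counts of replicate 4 (day 8) were the highest and those of replicate 6 (day 12) the lowest, with 1 library at each age.

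Gm24111 (chr13:48537825-48537921, plus strand) lies on the strand opposite to the let-7f-1 hairpin and to the long RNA 6720427I07Rik, inside the span of the latter. It is shown with the reverse complements of let-7f-1-3p and let-7f-5p in capitals.
Gm24111: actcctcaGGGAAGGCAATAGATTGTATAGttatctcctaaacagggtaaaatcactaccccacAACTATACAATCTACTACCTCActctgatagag
It held 0 counts in each UD-P19 library and 7, 14 and 13 in P19N. With 3 counts set as the bound in each UD-P19 library, its mean CPM in P19N was 2.83 times the mean bound. This ratio leaves out the spread within P19N (8.23, 18.5 and 18.1 CPM). Gm24111 was called by edgeR (adjusted p = 0.00299), also on its 24 unique counts (adjusted p = 0.0144) and under every alternative in which it was tested. It met the minimum through its P19N counts alone, so its direction was set by the choice of rows. Only 6 of its 34 counts were exact. Mirlet7f-1 itself held 1 count in all, and 6720427I07Rik held 2, 4 and 5 counts in UD-P19 and 18, 21 and 1 in P19N. Whether the counting used strand is not given in the sources used here, so reads of Gm24111 and of the opposite strand cannot be told apart.

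Mir93 and Mir877, like Mir8094 above, lie in no other listed non-coding RNA and hold a RefSeq miRNA of their own. Mir93, of the cluster in the replication gene Mcm7 that is a paralogue of Mir17-92, is a canonical miRNA of dividing cells. All 88 of its bases lie in an annotated exon of Mcm7, none of them coding or untranslated-region bases.
Mir93: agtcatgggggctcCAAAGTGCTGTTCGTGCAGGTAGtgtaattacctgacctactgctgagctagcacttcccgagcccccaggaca
Mir93 (capitals, miR-93-5p) held 5, 5 and 4 counts in UD-P19 and 10, 6 and 7 in P19N, all unique and 29 of 37 exact. It was at 8.25 ± 3.48 and 9.80 ± 1.92 CPM (SD, n = 3 each), the groups overlapped, and it was not called (log2 fold change 0.31, SE 0.671, adjusted p = 0.762). Mir877, a mirtron in the ribosome-associated gene Abcf1, has miR-877-5p at its first base.
Mir877: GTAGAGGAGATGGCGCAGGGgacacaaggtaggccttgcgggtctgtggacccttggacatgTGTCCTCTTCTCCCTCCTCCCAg
It held 10, 8 and 9 counts and then 3, 4 and 3, all unique and none exact, without overlap in CPM. Its log2 fold change of -1.82 (SE 0.699, adjusted p = 0.0716) was not called, and passed with DESeq2's size factors (adjusted p = 0.039), without Gm42418 (adjusted p = 0.0321) and without UD-P19 replicate 2 (adjusted p = 0.0163).

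Lists of miRNAs that mark pluripotent cells, neurons and other cell types were set beside the hairpins, and nearly all of their rows were below the minimum. Of 14 miRNAs of pluripotent cells (the miR-302 and miR-290 clusters), 6 had a row, and these held 21 counts together, at most 9 each. Their sum was 3, 14 and 1 in UD-P19 and 0, 0 and 3 in P19N, so the groups overlapped. Of 17 neuronal miRNAs, 5 had a row, with 13 counts, which sum to 0, 4 and 0 in UD-P19 and 2, 4 and 3 in P19N. The let-7 family, with 9 rows, held 15 counts, which sum to 2, 0 and 2 in UD-P19 and 6, 4 and 1 in P19N, with overlap. In the Mir17-92 group of 8 rows with 68 counts, Mir93 held 37, Mir20a held 4, 3 and 2 counts in UD-P19 and 0 in each P19N library, and Mir20b held 1, 6 and 2 and then 0 in each. The last 2 were named after their values were seen, and the whole group summed to 11, 18 and 10 and then 11, 7 and 11. Glial, muscle and erythroid miRNAs had no row. Of 17 non-canonical hairpins (mirtrons and hairpins of small structural RNAs), 12 had a row with 1614 counts, and 7 of these 12 reached the minimum. Of these 7, Mir1843b, Mir1843a, Mir677 and Mir1839 rose, Mir1291 fell, and Mir3068 and Mir877 were not called. Over all 1286 transcripts tested, 24.0% were called. Mir1843a and Mir1839 met the minimum through P19N alone, and Mir3068 and Mir877 through UD-P19 alone, so their direction was in part set by the choice of rows. The lists were not tested between the groups, and the neuronal list holds no Mir9 row.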

How the data were processed

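Small RNA of exosomes was sequenced in 6 libraries, 3 of UD-P19 and 3 of P19N. The authors trimmed adaptors, merged read pairs and counted reads against Ensembl non-coding RNA of GRCm38 in CLC Genomics Workbench (version not given in the sources used here), and deposited raw counts per transcript, with separate exact and unique counts. The submitters' processing notes name edgeR. Columns of the authors' own fold changes, p-values and group means were not used. Here, rows were matched to GENCODE M21 (107 of 5880 unmatched), and overlaps, matures and seeds were taken from its coordinates and from RefSeq (GRCm38.p6). Reads that fit several rows appear to be split among them: identical copies held near-equal but not the same counts.

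All 1286 transcripts with a total of at least 15 were fitted with edgeR 4.0.16 in R 4.3.3 (quasi-likelihood F test, TMM, Benjamini-Hochberg adjustment over all), with calls at an adjusted p of 0.05 or less. SE are the fold change over the root of F. The fit was tested on simulated data with 200 transcripts changed by a log2 fold change of 2, of which 74% were recovered among 1217 tested, with 4.52% false calls. Alternatives used DESeq2 1.42.0 and other scalings, filters and counts, and left out each library. Intervals of ratios are exact binomial (Clopper-Pearson, 95%) and cover counting error only, since reads without molecular identifiers are not independent molecules. Every hairpin is named, counted or given within a range. Library counts are given for called hairpins, the 10 highest and those inside another RNA. The hairpins, lists and classes were chosen with earlier results of these data known.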

Additional observations from a re-analysis of the deposited data

How the results depend on the processing

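Under 16 alternatives, no called hairpin changed direction, and 186 of 204 values of the 14 called hairpins kept their call. 7 kept it under every alternative in which each was tested (Mir1843b, Mir1843a, Gm24111, Gm49346, Gm47276, Gm47285 and Gm47281), and 7 lost it under at least 1. Of the 7 that kept it, Mir1843b and Gm49346 were tested under all 16, the 5S hairpins under 15, and Mir1843a and Gm24111 under 14. Of the hairpins not called, 12 passed under some alternative. The 14 calls became 5 with unique counts (14 hairpins tested; 2 higher, 3 lower), and with exact counts 10 with 2 higher, in each case with fewer hairpins tested. Leaving out 1 library gave 10 to 24 calls, 3 to 13 of them higher and 6 to 11 lower. The 24 came without UD-P19 replicate 2, with 13 higher, and 3 were higher without UD-P19 replicate 3 or P19N replicate 6. In the last 2 settings higher calls over all transcripts went from 193 to 130 and 146, and lower calls from 116 to 157 and 136. Over all transcripts, calls went from 309 to 530 without UD-P19 replicate 2, to 201 without P19N replicate 4 and to 173 without P19N replicate 5.

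Signs of hairpins that were not called turned for mmu-mir-3535 (0.094 with total counts only, 0.376 without UD-P19 replicate 1), Gm47295 (-0.007 without Gm42418, -0.115 without UD-P19 replicate 1, -0.21 without replicate 3), Gm47299 (-0.038 and -0.155 without UD-P19 replicates 1 and 3), Gm44456 (-0.044 and -0.098 without the same), Gm47277 (0.101 with total counts only, 1.157 without UD-P19 replicate 3) and Gm22133 (-2.8e-05 without P19N replicate 4). The cause was not tested. With 1 library left out, the values ran from -0.659 to 0.376 for mmu-mir-3535, -0.21 to 1.173 for Gm47295, -0.155 to 1.021 for Gm47299, -0.098 to 1.833 for Gm44456, -0.723 to 1.157 for Gm47277 and -2.8e-05 to 2.433 for Gm22133. The summed counts per 1000000, 1062 higher in P19N, were 3666 higher on unique counts (per 1000000 unique counts, whose share of the table was lower in P19N) and -4238 (lower in P19N) without Gm42418 in the total. The number of hairpins detected, 5 more in P19N, was 8.33 more at a minimum of 4 counts and 2.33 more on unique counts. The unique share, 7.72 percentage points higher in P19N, was 0.484 higher as a mean over hairpins. Counting an overlap from 1 base gave 24 hairpins inside another RNA in place of 10. Of the called hairpins with 15 to 20 counts, Gm27512 lost the call without any 1 library other than UD-P19 replicate 2. Mir1839 lost it without UD-P19 replicate 3 or P19N replicate 6. Mir677 and Gm49347, with 441 and 385 counts, also lost it when some single libraries were left out. Whether depth was the cause was not tested. No paired analysis was possible because the groups share no replicate number.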
